A study of Mus musculus with 9 samples.

Results

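The ADAMTS proteases and ADAMTS-like proteins are a family of secreted proteins of the extracellular matrix, and the 10 genes described here are Adamts1, Adamts2, Adamts4, Adamts5, Adamts6, Adamts9, Adamts12, Adamts15, Adamtsl1 and Adamtsl2. They were chosen by gene symbol. Every probe set that the array annotation gives to 1 of these symbols alone was taken, which came to 19 of the 45037 probe sets tested. The 19 probe sets belong to 9 of the 18193 genes named on the array, since 0 probe sets were listed for Adamts2.

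The RNA came from micromass cultures of mouse sclerotome, the ventral somite tissue from which the vertebrae and the outer layer of the intervertebral disc (IVD) arise. In such a culture, dissociated mesenchymal cells are plated as a dense drop. The sclerotome lay ventral to the neural tube and was taken from wild type E11.5 embryos after the notochord was removed. There were 3 groups of 3 arrays each: cultures that received BMP4 (50 ng/ml) for 8 hours, cultures that received TGF-β1 (5 ng/ml) for 8 hours, and untreated cultures. All groups grew in the same medium with serum, ascorbic acid and glycerophosphate, so the untreated cultures were not free of serum factors. The embryos' strain and the number pooled per culture are not given in the sources used here, and the sample records and the culture methods differ on whether the factors were added after a night in culture or soon after the cells had attached. A culture is a mixture of cells, and fewer cells of a type and less RNA per cell cannot be told apart in such samples.

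ADAMTS proteases carry a zinc metalloprotease domain followed by thrombospondin type repeats. They are made as inactive precursors, and proprotein convertases such as furin remove the prodomain. Adamts1, Adamts4, Adamts5, Adamts9 and Adamts15 belong to the branch that cleaves aggrecan and versican, the large proteoglycans of cartilage and of embryonic mesenchyme. Adamts2, with Adamts3, trims the ends of fibrillar procollagens. The ADAMTS-like proteins have the ancillary domains and no protease domain, and several of them bind fibrillin microfibrils, the fibres that also hold latent TGF-β.

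The values are log2 signals, centred for each probe set on its median over the 9 arrays, so 0 is the middle array and not the absence of a signal. They allow comparison between arrays for 1 probe set and not between genes, and levels above background cannot be read from them. A probe set is called higher or lower when its adjusted p was under 0.05 in limma, fitted once to the 3 groups with all 9 arrays, with Benjamini-Hochberg adjustment over the 45037 probe sets, and adjusted p below means this value. Differences are given with their standard error (SE) or 95% interval from the same fit. Both comparisons with untreated culture use the same 3 untreated arrays. The SD over all probe sets ran from 0.178 to 0.258 log2 units between arrays, and 0 pairs of arrays were identical. Each marker gene was read on 1 probe set, the one most variable over the 9 arrays, and its other probe sets are not given. Of 6 sclerotome marker genes, 3 were called lower with BMP4 (Pax1, Twist1 and Uncx) and 0 were called with TGF-β1. Over 7 marker lists of other cell types, with 28 of 31 genes measured, 2 were called higher (Myf5 and Sox2) and 1 lower (Krt18) with BMP4, and 1 was called lower (Cd68) with TGF-β1. The part of these markers in the results below was not tested.

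RefSeq promoter windows were matched for 5 of the 10 genes. Windows are shown for Adamts1 and Adamts12, which were lower with both factors, and for Adamtsl2, the member with the largest rise. They are bases upstream of the RefSeq gene start on build GRCm38.p6, written 5′ to 3′ on the gene's strand. Adamts1 lies on the minus strand at chr16:85803114-85803363, Adamts12 on the plus strand at chr15:11064523-11064772, and Adamtsl2 on the plus strand at chr2:27079129-27079335.
Adamts1: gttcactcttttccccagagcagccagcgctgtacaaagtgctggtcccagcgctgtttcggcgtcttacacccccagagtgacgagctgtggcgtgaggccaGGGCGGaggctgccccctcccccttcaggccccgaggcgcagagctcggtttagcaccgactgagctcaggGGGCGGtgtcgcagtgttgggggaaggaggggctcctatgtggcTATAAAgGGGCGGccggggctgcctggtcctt
Adamts12: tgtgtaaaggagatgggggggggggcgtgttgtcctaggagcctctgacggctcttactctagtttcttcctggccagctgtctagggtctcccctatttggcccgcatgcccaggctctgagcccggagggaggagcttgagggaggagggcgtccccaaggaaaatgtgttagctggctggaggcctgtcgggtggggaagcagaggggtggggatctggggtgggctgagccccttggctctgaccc
Adamtsl2: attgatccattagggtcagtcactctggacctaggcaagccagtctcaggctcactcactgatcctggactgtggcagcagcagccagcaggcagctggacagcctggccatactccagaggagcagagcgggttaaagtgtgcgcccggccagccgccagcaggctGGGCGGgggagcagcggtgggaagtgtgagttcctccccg
Capitals mark matches, on either strand, to 5 motifs: CAGAC (a short Smad motif), GGCGCC (a GC-rich Smad motif), TGANTCA (the AP-1 motif), TATAAA (the TATA box) and GGGCGG (the GC box). The Adamts1 window held 1 TATAAA and 3 GGGCGG, the Adamtsl2 window held 1 GGGCGG, and the Adamts12 window held 0 of the 5 motifs. None of the 3 stretches shown held a Smad or AP-1 motif. The Adamtsl2 stretch is 207 bases long, since the annotated gene begins there, and its whole window of 250 bases held 1 CAGAC and 1 TATAAA as well. Among 32851 promoter windows of 250 bases, 42.2% held CAGAC, 9.59% held GGCGCC, 6.75% held TGANTCA, 12.4% held TATAAA and 32.7% held GGGCGG, so these matches are a description of the letters shown.

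With BMP4, 9 of the 19 probe sets were called, 1 higher and 8 lower. Of all probe sets, 5.44% were called, 2.31% higher and 3.13% lower. They covered 6 genes: Adamts6 was higher, and Adamts1, Adamts5, Adamts9, Adamts12 and Adamts15 were lower. With TGF-β1, 12 of the 19 were called, 3 higher and 9 lower. Of all probe sets, 4.43% were called, 1.83% higher and 2.6% lower. They covered 7 genes: Adamts6 and Adamtsl2 were higher, and Adamts1, Adamts5, Adamts12, Adamts15 and Adamtsl1 were lower. The median log2 difference over the 19 probe sets was -0.37 with BMP4 and -0.07 with TGF-β1, where the medians over all probe sets were 0.0012 and 0.013. The arrays of treated and untreated cultures did not overlap for 11 member probe sets with BMP4 (20.0% of all probe sets) and for 13 with TGF-β1 (21.8% of all). The genes were chosen with earlier results of these arrays known, so these shares are no independent evidence about the family. Both lists of calls shortened when single arrays were left out: 3 of the 9 calls with BMP4 and 5 of the 12 with TGF-β1 held in each of the 9 omissions of 1 array. In the lowest case 3 calls were left with BMP4 and 6 with TGF-β1. Those omissions, of BMP4 array 1 and of TGF-β1 array 3, also lowered the calls over all probe sets, from 2449 to 1511 and from 1993 to 867.

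**Figure D1:**
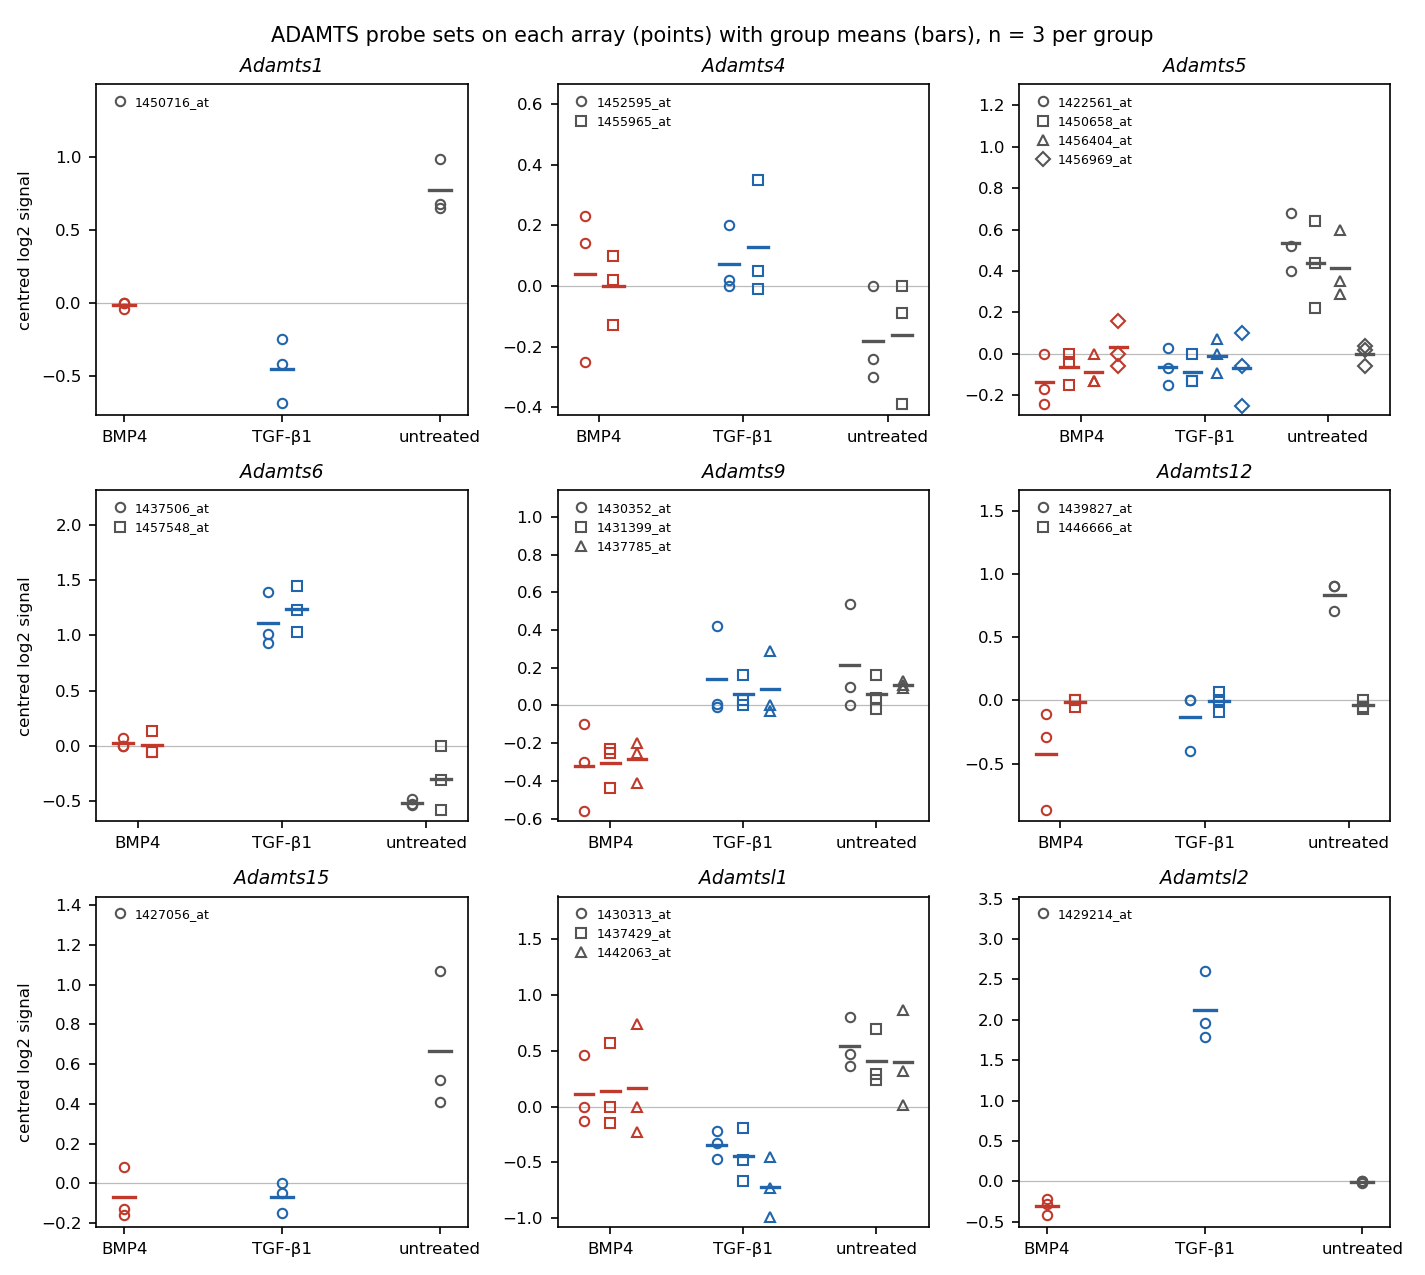
Centred log2 signal (y axis) of the 19 member probe sets in 9 panels, 1 per gene, with each array as a point, the probe sets of a gene as different symbols and the mean of 3 arrays as a bar. Adamtsl2 and Adamts6 stood highest in the TGF-β1 arrays, Adamts1, Adamts12 (1439827_at) and Adamts15 stood highest in untreated arrays, and Adamts12 1446666_at stayed near 0 in all 9.

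Adamts1, which cleaves aggrecan and versican, was down-regulated by both factors. Its probe set 1450716_at read -0.04, 0.00 and 0.00 in BMP4 cultures and -0.25, -0.69 and -0.42 in TGF-β1 cultures, against 0.68, 0.99 and 0.65 in untreated cultures. All 6 treated arrays were below all 3 untreated arrays, and the 3 TGF-β1 arrays were the lowest. The difference was -0.79 ± 0.12 (SE) with BMP4, a 1.73-fold fall (adjusted p = 0.0051), and -1.23 ± 0.12 with TGF-β1, a 2.34-fold fall (adjusted p = 0.00075). Both calls held without any 1 array. TGF-β1 arrays read 0.44 lower than BMP4 arrays on the log2 scale, with no overlap, but this difference was not called (adjusted p = 0.066). It was called with arrays scaled to equal spread (0.037), without TGF-β1 array 1 (0.046) and without untreated array 2 (0.040).

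Adamts5, the main aggrecanase of mouse cartilage, is an immediate protein-coding neighbour of Adamts1 in the RefSeq annotation, and it too was down-regulated by both factors on 3 of its 4 probe sets. On 1422561_at the arrays read 0.00, -0.24 and -0.17 with BMP4 and -0.15, -0.07 and 0.03 with TGF-β1, against 0.52, 0.68 and 0.40 in untreated culture. The treated and untreated arrays did not overlap. The falls were 1.59-fold with BMP4 (log2 difference -0.67 ± 0.10, adjusted p = 0.0035) and 1.51-fold with TGF-β1 (-0.60 ± 0.10, adjusted p = 0.0093), and both held without any 1 array. Probe set 1450658_at, which was designed on the same GenBank record as 1422561_at and is thus no separate evidence, gave -0.50 with BMP4 (adjusted p = 0.023) and -0.52 with TGF-β1 (adjusted p = 0.024). Probe set 1456404_at gave -0.50 (adjusted p = 0.014) and -0.42 (adjusted p = 0.037) for the same comparisons.

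The 2 weaker Adamts5 probe sets did not keep their calls in every omission of an array. For 1450658_at the call was lost without any of 5 arrays in each comparison, the 3 treated arrays of that comparison and untreated arrays 1 and 2, with adjusted p up to 0.095 for BMP4 and 0.087 for TGF-β1. For 1456404_at it was lost without BMP4 array 1 (adjusted p = 0.059) or 2 (0.060) in the BMP4 comparison, and without any array except untreated array 1 in the TGF-β1 comparison (up to 0.11). When only the 2 groups compared were fitted, 1450658_at was called in neither comparison (adjusted p = 0.067 and 0.063) and 1456404_at not with TGF-β1 (0.084, and 0.061 among the 50% of probe sets with larger variance). Without the 3 arrays numbered 2, no Adamts5 probe set was called, with 1422561_at at -0.54 (adjusted p = 0.059) for BMP4 and -0.52 (0.076) for TGF-β1. The fourth probe set, 1456969_at, lay between -0.25 and 0.16 on all 9 arrays, with differences of 0.034 (95% interval -0.19 to 0.26) for BMP4 and -0.067 (-0.29 to 0.16) for TGF-β1. Over the 9 arrays it correlated with the other 3 at r = 0.10 to 0.19, whereas those 3 correlated with each other at r = 0.93 to 0.97. Nearest to Adamts5 in kind, Adamts4 was not called on either of its probe sets. Its 1455965_at read 0.02, -0.13 and 0.10 with BMP4 and 0.05, -0.01 and 0.35 with TGF-β1, against 0.00, -0.09 and -0.39 in untreated culture, and the groups overlapped. The intervals of its log2 differences were -0.12 to 0.44 for BMP4 and 0.01 to 0.57 for TGF-β1 (adjusted p = 0.62 and 0.25), and its 1452595_at differed by 0.22 with BMP4 and 0.25 with TGF-β1 (adjusted p = 0.46 and 0.34). On 1452595_at the TGF-β1 arrays stood above the untreated arrays without overlap, as groups did for 21.8% of all probe sets in either direction. The BMP4 and untreated arrays of 1452595_at overlapped.

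Adamts15, another aggrecanase, was also lower with both factors. Its probe set 1427056_at read -0.13, 0.08 and -0.16 with BMP4 and 0.00, -0.05 and -0.15 with TGF-β1, against 0.52, 1.07 and 0.41 in untreated culture. The treated arrays stood below the untreated arrays without overlap, and untreated array 2 stood above the other 2. The falls were 1.67-fold with BMP4 (log2 difference -0.74 ± 0.15, adjusted p = 0.021) and 1.66-fold with TGF-β1 (-0.73 ± 0.15, adjusted p = 0.027), and the interval of the direct difference between the factors ran from -0.34 to 0.34. The BMP4 call was lost without BMP4 array 1 (adjusted p = 0.083) or 3 (0.068), and the TGF-β1 call without TGF-β1 array 1 (0.074), 2 (0.070) or 3 (0.10) or untreated array 1 (0.052). Both calls were also lost when only the 2 groups compared were fitted (adjusted p = 0.069 with BMP4 and 0.068 with TGF-β1). Adamts8, its neighbour in the RefSeq annotation and also a cleaver of aggrecan, was not called with either factor. Adamts8 1418270_at read 0.20, 0.16 and 0.16 with BMP4 and 0.15, -0.12 and 0.00 with TGF-β1, against -0.03, -0.13 and 0.00 in untreated culture (adjusted p = 0.18 with BMP4 and 0.74 with TGF-β1).

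Adamts9, a versican-cleaving protease of embryonic mesenchyme, was called lower with BMP4 on 2 of its 3 probe sets and on 0 of 3 with TGF-β1. On 1431399_at the BMP4 arrays read -0.44, -0.23 and -0.25 and the TGF-β1 arrays 0.00, 0.03 and 0.16, against 0.16, 0.04 and -0.02 in untreated arrays. On 1437785_at they read -0.41, -0.25 and -0.20 with BMP4 and -0.03, 0.29 and 0.00 with TGF-β1, against 0.13, 0.11 and 0.09 in untreated culture. On 1430352_at they read -0.30, -0.56 and -0.10 with BMP4 and -0.01, 0.01 and 0.42 with TGF-β1, against 0.54, 0.00 and 0.10 in untreated culture. On all 3 probe sets the BMP4 arrays were the lowest of the 9, and the TGF-β1 and untreated arrays overlapped. The log2 difference with BMP4 was -0.37 ± 0.09 for 1431399_at (a 1.29-fold fall, adjusted p = 0.040), -0.39 ± 0.10 for 1437785_at (1.31-fold, adjusted p = 0.048) and -0.53 ± 0.17 for 1430352_at, which was not called (adjusted p = 0.12). For TGF-β1 the 3 intervals lay within -0.46 to 0.31. In the direct comparison TGF-β1 arrays were higher than BMP4 arrays by 0.37 for 1431399_at (adjusted p = 0.034).

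These Adamts9 calls were close to the threshold. The BMP4 call of 1431399_at was lost without any 1 of the 9 arrays (adjusted p 0.051 to 0.15), and that of 1437785_at without any except TGF-β1 array 2 (up to 0.17). In the direct comparison the call of 1431399_at was lost without any 1 of the 6 BMP4 and TGF-β1 arrays (0.060 to 0.12). Among the 50% of probe sets with larger variance neither BMP4 call was made (0.077 and 0.069), and 1431399_at was also not called with BMP4 when only the 2 groups compared were fitted (0.085). For 1437785_at the direct difference was 0.37 and not called (adjusted p = 0.053), and it was called with the replicate number as a block (adjusted p = 0.032). Array weights (0.044) and equal spread (0.038) also made this call.

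Adamts12 had 2 probe sets that did not move together (r = 0.0027 over the 9 arrays). Adamts12, with Adamts7, forms a branch of the family that degrades cartilage oligomeric matrix protein. Probe set 1439827_at read -0.29, -0.87 and -0.11 with BMP4 and 0.00, -0.40 and 0.00 with TGF-β1, against 0.91, 0.91 and 0.71 in untreated culture. The highest treated array stood well below the lowest untreated array, and array 2 was the lowest in both treated groups. The difference was -1.26 ± 0.18 with BMP4, a 2.40-fold fall (adjusted p = 0.0034), and -0.97 ± 0.18 with TGF-β1, a 1.97-fold fall (adjusted p = 0.017). The difference between the factors was 0.29 with an interval of -0.12 to 0.70 and was not called (adjusted p = 0.43).

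The Adamts12 call with BMP4 held in all 9 omissions of 1 array (adjusted p up to 0.017). The call with TGF-β1 was lost without TGF-β1 array 2 (adjusted p = 0.058), untreated array 1 (0.065) or untreated array 2 (0.058). Without all 3 arrays numbered 2 it was -0.81 and remained called (adjusted p = 0.017). The other probe set, 1446666_at, read 0.00, -0.05 and 0.00 with BMP4 and 0.00, -0.09 and 0.07 with TGF-β1, against -0.07, 0.00 and -0.05 in untreated culture. Its groups overlapped, and its intervals were -0.14 to 0.18 with BMP4 and -0.13 to 0.19 with TGF-β1. Since levels are not kept in the deposited values, a probe set without signal and a transcript without change cannot be told apart.

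Adamts6 was up-regulated by TGF-β1 on both of its probe sets. Adamts6, with Adamts10, is a branch of the family linked to fibrillin microfibrils. Probe set 1437506_at read 0.07, 0.00 and 0.00 with BMP4 and 1.01, 1.39 and 0.93 with TGF-β1, against -0.48, -0.52 and -0.53 in untreated culture. Probe set 1457548_at read -0.05, -0.05 and 0.14 with BMP4 and 1.03, 1.45 and 1.23 with TGF-β1, against 0.00, -0.58 and -0.31 in untreated culture. On both the TGF-β1 arrays were the highest 3 of 9. On 1437506_at the 3 groups were apart from one another with BMP4 in the middle, while on 1457548_at the BMP4 and untreated arrays overlapped.

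With TGF-β1 the Adamts6 rise was 3.08-fold on 1437506_at (log2 difference 1.62 ± 0.11, adjusted p = 0.00011) and 2.90-fold on 1457548_at (1.53 ± 0.15, adjusted p = 0.00061). Both held without any 1 array, as did both direct differences between TGF-β1 and BMP4, which were 1.09 (adjusted p = 0.00037) and 1.23 (adjusted p = 0.0010). With BMP4 the rise was 1.45-fold on 1437506_at (0.54 ± 0.11, adjusted p = 0.021), and on 1457548_at the difference was 0.31 ± 0.15 and not called (adjusted p = 0.34). The BMP4 call was lost without any 1 of the 6 BMP4 and untreated arrays (adjusted p 0.051 to 0.082) and with arrays scaled to equal spread (0.085). The 2 probe sets correlated at r = 0.96 over the 9 arrays.

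**Figure D2:**
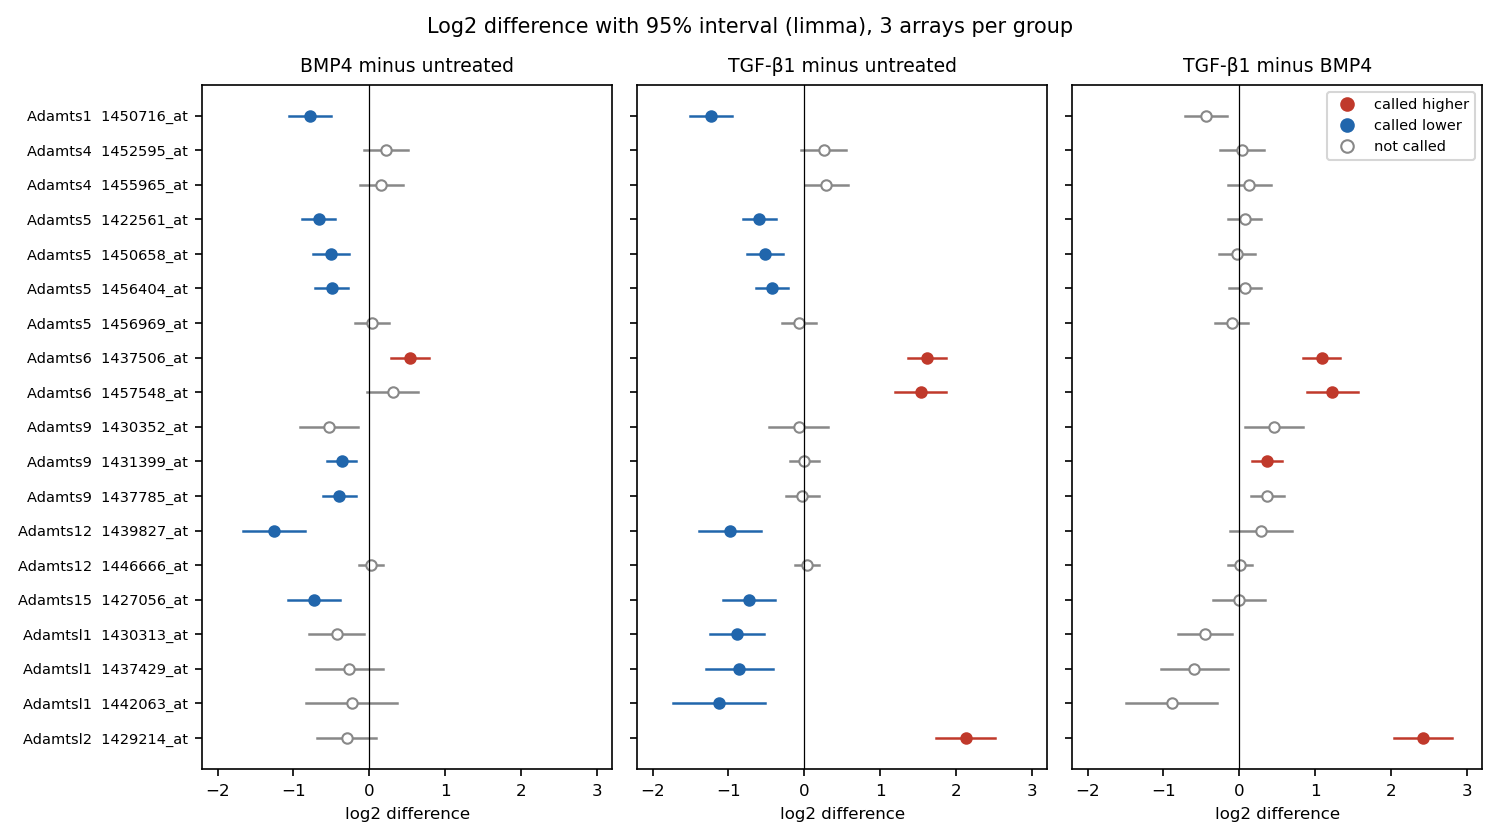
Log2 difference (x axis) with its 95% interval for each of the 19 member probe sets (rows) in 3 panels that subtract untreated from BMP4 culture, untreated from TGF-β1 culture and BMP4 from TGF-β1 culture, with filled points for called probe sets. Adamtsl2 reached 2.13 and Adamts6 1.62 with TGF-β1, and Adamts12 1439827_at fell by 1.26 with BMP4.

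Adamtsl2 had the largest difference of the 19 probe sets, a rise with TGF-β1. In humans, mutations of this gene cause geleophysic dysplasia, a skeletal disorder with short stature, and its protein binds fibrillin and the latent TGF-β binding protein LTBP1. Its probe set 1429214_at read -0.42, -0.22 and -0.28 with BMP4 and 1.96, 2.61 and 1.79 with TGF-β1, against -0.02, 0.00 and 0.00 in untreated culture. The TGF-β1 arrays stood far above the other 6, and the BMP4 arrays lay just below the untreated arrays without overlap. The rise with TGF-β1 was 4.37-fold (2.13 ± 0.17, adjusted p = 0.00025), and TGF-β1 exceeded BMP4 by 5.36-fold (2.42 ± 0.17, adjusted p = 5.5e-05). Both held without any 1 array (adjusted p up to 0.0019 and 0.00060). The difference with BMP4 was -0.30 ± 0.17 and not called (adjusted p = 0.46, interval -0.68 to 0.09).

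Adamtsl1, also named punctin, moved the other way with TGF-β1: all 3 of its probe sets were lower. Probe set 1430313_at read 0.00, 0.46 and -0.13 with BMP4 and -0.22, -0.33 and -0.47 with TGF-β1, against 0.47, 0.80 and 0.36 in untreated culture. Probe set 1437429_at read -0.15, 0.57 and 0.00 with BMP4 and -0.67, -0.19 and -0.48 with TGF-β1, against 0.29, 0.70 and 0.24 in untreated culture. Probe set 1442063_at read 0.00, 0.74 and -0.23 with BMP4 and -0.99, -0.45 and -0.73 with TGF-β1, against 0.32, 0.87 and 0.01 in untreated culture. On all 3 the TGF-β1 arrays were the lowest 3 of 9, and the BMP4 and untreated arrays overlapped. Array 2 was the highest of its group on all 3 probe sets with BMP4 and in untreated culture, and on 2 of the 3 with TGF-β1.

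The Adamtsl1 falls with TGF-β1 were 1.85-fold for 1430313_at (log2 difference -0.88 ± 0.16, adjusted p = 0.015), 1.81-fold for 1437429_at (-0.86 ± 0.20, adjusted p = 0.040) and 2.18-fold for 1442063_at (-1.12 ± 0.27, adjusted p = 0.047). Among the 9 omissions of 1 array, the call of 1430313_at was lost without TGF-β1 array 3 (adjusted p = 0.066). That of 1437429_at was lost without BMP4 array 3 (0.057), TGF-β1 array 1 (0.14) or 3 (0.13), or any 1 of the untreated arrays (0.054 to 0.12). That of 1442063_at was lost without BMP4 array 1 (0.073), any 1 of the TGF-β1 arrays (0.067 to 0.15), or untreated array 1 (0.11) or 2 (0.13). With arrays scaled to equal spread, 1437429_at (adjusted p = 0.0504) and 1442063_at (0.063) were not called. Without all 3 arrays numbered 2 the 3 probe sets remained called (adjusted p = 0.026, 0.013 and 0.022 in the same order). With BMP4 the differences were -0.43, -0.27 and -0.23 and none was called (adjusted p = 0.18, 0.58 and 0.76). Under the replicate block, 1430313_at was called lower with BMP4 (adjusted p = 0.042).

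In the direct comparison of TGF-β1 with BMP4, 4 of the 19 probe sets were called, all higher with TGF-β1. Of all probe sets, 6.91% were called, 3.41% higher and 3.49% lower. They were both probe sets of Adamts6, Adamtsl2, and Adamts9 1431399_at. For 10 of the 19, TGF-β1 and BMP4 arrays were free of overlap (25.5% of all). In these groups the arrays with the same replicate number deviated together, and with that number as a block 8 of the 19 were called, 5 higher and 3 lower (11.7% of all probe sets, 5.55% higher and 6.11% lower). The 3 lower were the Adamtsl1 probe sets, whose differences of -0.45, -0.59 and -0.89 for 1430313_at, 1437429_at and 1442063_at had adjusted p of 0.14, 0.12 and 0.086 without the block and 0.030, 0.0030 and 0.0030 with it. Without the block, 1442063_at was also called with array weights (0.0497), among the 50% of probe sets with larger variance (0.029) and without the 3 arrays numbered 2 (0.044). For the genes that were lower with both factors, the direct comparison made no call with or without the block, though Adamts1 was called in the other settings named above. The interval of this comparison was -0.15 to 0.29 for Adamts5 1422561_at, -0.12 to 0.70 for Adamts12 1439827_at and -0.72 to -0.16 for Adamts1.

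Among 16 other genes of the family, 13 were measured by 20 probe sets. With BMP4, 1 was called higher and 3 were called lower (5.44% of all probe sets), and with the replicate block 3 and 4 (9.03% of all), which added Adamts18 1446247_at (adjusted p = 0.020), Adamts20 1456901_at (0.027) and Adamtsl3 1440668_at (0.0098). Adamts16 1439604_at and Adamts18 1444253_at, a closely related pair of proteases, fell 2.04-fold (log2 difference -1.03, adjusted p = 0.00074) and 2.27-fold (-1.18, adjusted p = 0.0027), and both calls held without any 1 array. The other probe sets of this pair were not called without the block: Adamts16 1441841_at differed by 0.034 (adjusted p = 0.94), and Adamts18 1437574_at and 1446247_at by -0.58 and -0.59 (adjusted p = 0.19 and 0.080). Adamts16 1439604_at read -1.27, -0.93 and -0.90 with BMP4 and 0.22, 0.10 and 0.39 with TGF-β1, against -0.01, 0.00 and 0.00 in untreated culture. The BMP4 arrays of Adamts16 1439604_at stood apart at the bottom, and TGF-β1 exceeded BMP4 by 1.27 (adjusted p = 0.00015). Adamts7 1452339_at, the relative of Adamts12, was lower by -0.50 (adjusted p = 0.045), a call lost without any 1 array except BMP4 array 3 (up to 0.13).

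With TGF-β1, 3 of the 20 probe sets were called, all higher (4.43% of all probe sets). Adamts20 1456901_at, a versican-cleaving protease needed for coat pigment cells in mice, read 0.06, -0.10 and 0.00 with BMP4 and 0.83, 0.85 and 0.97 with TGF-β1, against -0.21, -0.98 and -0.66 in untreated culture. The TGF-β1 arrays of Adamts20 were the highest 3, and the rise was 2.83-fold (1.50, adjusted p = 0.00097) and held without any 1 array. Adamts3 1441693_at, a procollagen N-proteinase like the unmeasured Adamts2, was higher with both factors, by 0.48 with BMP4 (adjusted p = 0.032) and 0.47 with TGF-β1 (adjusted p = 0.040). These Adamts3 calls held in 4 and 1 of the 9 omissions of an array (adjusted p up to 0.12 in both). The other Adamts3 probe set, 1458143_at, differed by 0.295 with BMP4 and 0.33 with TGF-β1. It was called with neither factor (adjusted p = 0.28 and 0.21), and its treated and untreated arrays overlapped. Adamtsl3 1440668_at was higher by 0.77 with TGF-β1 (adjusted p = 0.023), a call that held in 5 of 9 omissions (up to 0.086). Adamts10 1427139_at, the relative of Adamts6, was called with neither factor against untreated culture, but TGF-β1 exceeded BMP4 by 0.62 (adjusted p = 0.0077), which held in all 9 omissions. This call was lost without the 3 arrays numbered 2 (adjusted p = 0.061). The other Adamts10 probe set, 1441309_at, differed by 0.28 between the factors, with overlap, and was not called (adjusted p = 0.49).

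Of 17 genes for substrates and matrix partners, 16 were measured by 44 probe sets. With BMP4, 1 was called higher and 6 lower (5.44% of all probe sets). Acan, the aggrecan core protein, read 1.35, 2.03 and 1.38 with BMP4 and -0.14, 0.48 and -0.15 with TGF-β1, against -0.36, 0.00 and -0.56 in untreated culture. Its 3 BMP4 arrays were the highest of the 9, a 3.71-fold rise (1.89, adjusted p = 0.0013). The lower ones were 3 probe sets of Col1a2 (-0.48 to -0.76) and 2 of Col3a1 (-0.41 and -0.62), which encode chains of fibrillar collagens I and III, and 1 of Ltbp1 (-0.49). The calls of Col1a2 1450857_a_at and of both Col3a1 probe sets were lost without BMP4 array 2 (adjusted p 0.053 to 0.076), and those of Col3a1 also without untreated array 1 (0.078 and 0.083) and without untreated array 2 (0.051) or 3 (0.053). With TGF-β1, 12 of the 44 were called, all higher (4.43% of all probe sets). They were 6 probe sets of Fmod, a small collagen-binding proteoglycan (2.19 to 2.53), 3 of Bgn, the proteoglycan biglycan (0.45 to 0.55), 2 of Fn1, which encodes fibronectin (0.69 and 1.12), and 1 of Ltbp1. Ltbp1 1448870_at, which encodes the binding partner of the Adamtsl2 protein, read -0.30, -0.65 and -0.44 with BMP4 and 0.53, 0.44 and 0.42 with TGF-β1, against 0.12, 0.00 and -0.05 in untreated culture. The 3 groups of Ltbp1 did not overlap, with differences of -0.49 for BMP4 (adjusted p = 0.017) and 0.44 for TGF-β1 (adjusted p = 0.035). These Ltbp1 calls held in 7 and 2 of the 9 omissions (up to 0.067 and 0.12), and the direct difference of 0.93 (adjusted p = 0.00042) held in all 9. Another Ltbp1 probe set, 1447547_at, was called only in the direct comparison (0.59, adjusted p = 0.033), which held in 4 of 9 omissions.

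The 12 genes for inhibitors, activators and clearance were all measured, by 30 probe sets. With BMP4, 5 were called higher and 4 lower (5.44% of all probe sets). Timp4, an inhibitor of metalloproteases, read 1.91, 2.37 and 1.61 with BMP4 and -0.32, -0.24 and 0.00 with TGF-β1, against -0.17, -0.38 and 0.04 in untreated culture, a 4.39-fold rise with BMP4 (2.14, adjusted p = 0.00020). Only the BMP4 arrays of Timp4 stood apart. Pcsk6, a proprotein convertase of the furin family, rose 2.72-fold (1.44, adjusted p = 0.00013), and Furin itself 1.48-fold (0.57, adjusted p = 0.012). The Furin call was lost without the 3 arrays numbered 2 (adjusted p = 0.090). Timp3, the tissue inhibitor with the strongest action on aggrecanases, was higher by 0.41 and 0.39 on 2 probe sets (adjusted p = 0.024 and 0.033), calls that held in 6 and 2 of the 9 omissions (up to 0.083 and 0.12). Timp2 was lower with BMP4 on 4 of its probe sets (-0.47 to -0.69), and each call held in all 9 omissions. Without the 3 arrays numbered 2, 1433662_s_at (adjusted p = 0.036) and 1454677_at (0.020) remained called. In that setting 1450040_at (0.054) and 1460287_at (0.090) were not called.

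With TGF-β1, 3 of these 30 probe sets were called higher and 1 lower (4.43% of all probe sets), and with the replicate block 6 and 1 (8.95% of all). Timp2 was higher on 2 probe sets, 1450040_at and 1460287_at (0.39 and 0.40, adjusted p = 0.015 and 0.027), opposite to BMP4. These 2 calls held in 6 and 3 of 9 omissions (up to 0.062 and 0.093). Its probe sets 1420924_at, 1433662_s_at and 1454677_at were not called with TGF-β1. Pcsk5, another convertase, was higher by 0.36 (adjusted p = 0.015), which was lost without TGF-β1 array 1 (0.054) or 3 (0.055). Reck, a membrane-anchored inhibitor of metalloproteases, was lower by -0.49 (adjusted p = 0.0091), which held in all 9. The Reck call was lost without the 3 arrays numbered 2 (adjusted p = 0.077).

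**Figure D3:**
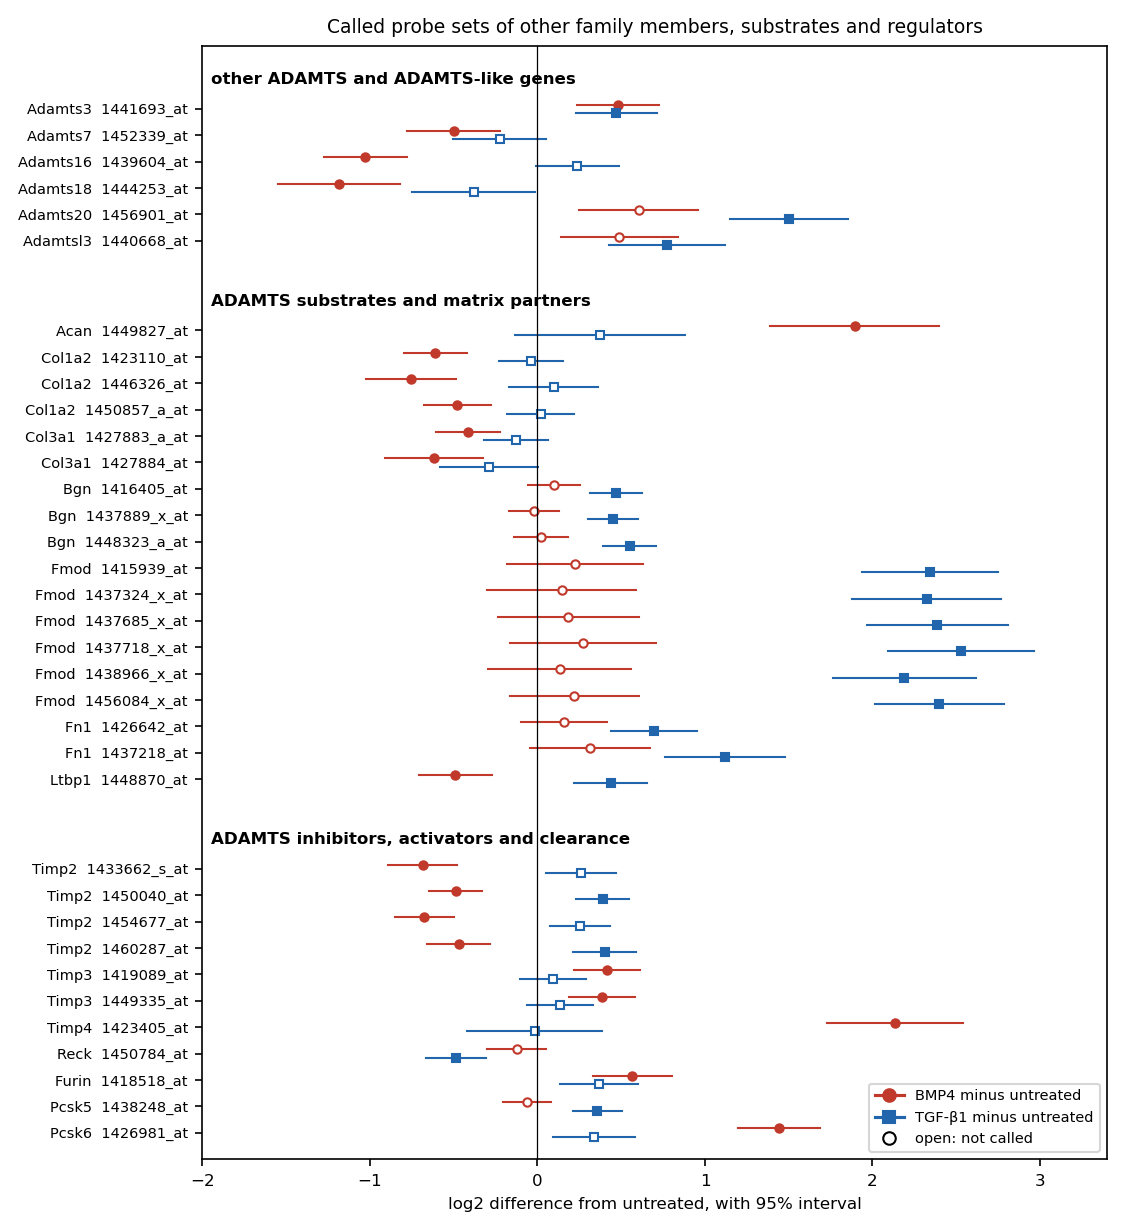
Log2 difference from untreated culture (x axis) with its 95% interval for each probe set called with BMP4 (circles) or TGF-β1 (squares), in rows grouped as other family members, substrates with matrix partners, and regulators; open symbols were not called. Timp4 (2.14) and Acan (1.89) lay far to the right with BMP4, and the 6 Fmod probe sets (2.19 to 2.53) and Adamts20 (1.50) with TGF-β1.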

How the data were processed

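Affymetrix mouse genome arrays were hybridised with RNA from 9 cultures, 3 per group, after amplification of 50 ng of total RNA per sample. The authors deposited log2 signals made with the RMA method (version not given in the sources used here), and the median over the 9 arrays was 0 in all 45101 probe sets (tolerance 1e-06), so levels and background cannot be read. The 64 control probe sets were left out. Probe sets were named from the platform annotation (34945 with 1 symbol, 932 with several, 9160 with none), and promoter windows are from RefSeq. Tests used limma 3.58.1 in R 4.3.3 with 6 residual and 4.01 prior degrees of freedom, two-sided. A check on simulated data covered the size of planted changes. Its noise was independent between arrays, so it could not test calls where arrays of the same number deviate together. Python 3.11.15 with matplotlib 3.10.9 made the counts and figures. According to the methods the whole experiment was set up anew for each replicate, and p-values thus reflect variation among such set-ups. In the main fit, variation that arrays of the same set-up share stays in the error. The replicate block takes it out where the number marks the set-up. Arrays with the same number deviated together in TGF-β1 and BMP4 culture (r = 0.29, 0.50 and 0.38). The number was read as a pairing there. In TGF-β1 and untreated culture these correlations were 0.14, 0.49 and 0.28. Untreated array 1 correlated better with TGF-β1 array 3 (0.20) than with TGF-β1 array 1, so that pairing was less clear. Member calls that the block changed are given for all 3 comparisons. Alternatives were array centring, equal spread, array weights, a variance filter, robust moderation, separate fits, a replicate block, the study's unequal-variance test, and omission of arrays. The members and lists were chosen with earlier results of these data known. Named genes were all member probe sets, list genes with a called probe set, and genes with the most similar pattern. Adamts8 was named for its position, after its values were seen.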

Additional observations from a re-analysis of the deposited data

How the results depend on the processing

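Levels are not kept in the deposited values, so signal over background could not set a limit. Array centring, robust moderation and array weights left every count of called probe sets within 1.5 times. After Benjamini-Hochberg adjustment the unequal-variance test of the study's methods called 0 of the 19 member probe sets in each of the 3 comparisons and 0 in the other lists. Over all 45037 probe sets it called 0 with BMP4, 0 with TGF-β1 and 11 for TGF-β1 against BMP4, so these zeros are not particular to the family. At its unadjusted threshold with a 2-fold change it called 1 member with BMP4 and 5 with TGF-β1; for other family members 2 and 1, for substrates 1 and 7, and for regulators 2 and 0. Without the 3 arrays numbered 2, BMP4 calls were 4 for members, 2 for other family members, 2 for substrates and 4 for regulators, and TGF-β1 calls were 1 for other family members and 0 for regulators. Over all probe sets this omission left 1200 calls with BMP4 (2449 with all arrays) and 888 with TGF-β1 (1993 with all arrays). Among the 50% of probe sets with larger variance, TGF-β1 calls for regulators were 1. When only the 2 groups compared were fitted, member calls were 6 with BMP4 (9 with all groups), 9 with TGF-β1 (12 with all groups) and 4 for TGF-β1 against BMP4. The calls over all probe sets in these fits were 1617, 1172 and 2870 in the same order (2449, 1993 and 3110 with all groups).

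With the replicate number as a block, 8 members were called for TGF-β1 against BMP4, 7 other family members for BMP4 and 7 regulators for TGF-β1, and no member call was lost. BMP4 and untreated arrays of the same number deviated with r = -0.049, 0.50 and 0.24, and BMP4 array 1 correlated best with untreated array 3. Whether the number pairs these groups was thus not settled by their values alone. A pairing of TGF-β1 with each of them would imply it, but that of TGF-β1 with untreated culture was less clear. For BMP4 against untreated culture the block moved the member calls from 9 to 10 by adding Adamtsl1 1430313_at.

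When 1 array was left out in turn, calls ranged from 3 to 8 (BMP4), 6 to 11 (TGF-β1) and 3 to 5 (TGF-β1 against BMP4) for members, from 2 to 4 and 1 to 3 with each factor for other family members, from 3 to 8 with BMP4 for substrates, and from 7 to 12 and 1 to 4 for regulators. Over all probe sets the calls ranged from 1431 to 2262 with BMP4, from 867 to 2053 with TGF-β1 and from 1877 to 3330 for TGF-β1 against BMP4. No called value changed direction in any setting. Values near 0 that were not called did: with BMP4, Adamts5 1456969_at ranged from -0.028 to 0.079 and Adamtsl1 1442063_at from -0.52 to 0.0013. With TGF-β1, Adamts5 1456969_at ranged from -0.15 to 0.022, Adamts9 1430352_at from -0.21 to 0.089, 1431399_at from -0.045 to 0.054 and 1437785_at from -0.13 to 0.035, and Adamts12 1446666_at from -0.0071 to 0.076. Adamts15 ranged from -0.042 to 0.075 for TGF-β1 against BMP4. Adamts9 1431399_at with TGF-β1 was -0.037 with array weights and -0.0060 with equal spread. For the changes no cause was tested.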

Other observations

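Over the 9 arrays, the genes with the pattern most like 4 members were found by Pearson's r across 18193 genes, each by its most variable probe set. These values describe arrays that share their treatment groups. For Adamtsl2 they were Irx2 (r = 0.995), Nt5dc2 (0.994) and Gpat3 (0.992), with log2 differences for TGF-β1 minus untreated of 0.91, 0.19 and 2.84. For Adamts6 1457548_at they were Pmepa1 (0.988), Nupr1 (0.984) and Spsb1 (0.982), with 1.99, 1.57 and 1.59. For Adamts1 they were Ccdc28b (0.980), Ppcdc (0.979) and Cc2d2a (0.975), with -1.10, -0.46 and -0.68. For Adamts12 1439827_at they were Tmem26 (0.987), Septin9 (0.984) and Efemp1 (0.980), with -1.31, -0.42 and -1.48 for BMP4 minus untreated.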
